A study of Mus musculus with 11 samples.

Results

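The genes described here encode the proteins of the cytosolic ribosome, together with their annotated paralogs, in hepatocytes isolated from mice. They were taken as the protein-coding genes of GENCODE M21 whose symbol starts with Rpl or Rps followed by a digit or the letter p, without the Rps6k kinases and the pseudogene names, and 85 of the 54232 gene identifiers in the count tables met this rule. The pattern also takes in *Rps19bp1*, which encodes a protein that binds RPS19 and is no ribosomal subunit, and it leaves out genes such as *Rpsa*, *Fau* and *Rack1*, which encode ribosomal or ribosome-bound proteins under other names. Adult male C57BL/6 mice were either *Xbp1* LKO, with a liver-specific deletion of the transcription factor gene *Xbp1*, or *Xbp1* fl/fl controls, which carry the floxed allele with no deletion. Each genotype was given standard chow or the HFS diet, which is rich in fat and sugar (a Western diet with fructose and glucose in the drinking water), for up to 6 weeks, and all mice were fasted before they were killed. The libraries numbered 3 for *Xbp1* fl/fl on chow, 2 for *Xbp1* LKO on chow, 3 for *Xbp1* fl/fl on HFS and 3 for *Xbp1* LKO on HFS, and each HFS library was a pool of 2 mice whereas a chow library came from 1 mouse. In the LKO line Cre is driven by the albumin promoter, which is active in hepatocytes.

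The ribosome is built from a large and a small subunit, each holding ribosomal RNA and a set of proteins present in 1 copy, with the stalk proteins RPLP1 and RPLP2 as the main exception. Hepatocytes export large amounts of plasma protein and depend on a dense population of ribosomes, many of them bound to the endoplasmic reticulum. The mRNAs of ribosomal proteins carry a 5′ terminal oligopyrimidine (TOP) tract, a C at the cap followed by C and T bases, through which mTORC1 signalling and the cap-binding protein LARP1 set how many of them are translated. Their number in the cell is otherwise set by transcription and mRNA stability, and mammalian genomes hold many processed pseudogenes of nearly every member.

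The tract can be seen at the annotated starts of several members. RefSeq promoter windows (build GRCm38.p6, 250 bases before and 50 after the start) were matched to 65 of the 85 members by symbol. A C followed by at least 4 bases that are each C or T stood exactly at an annotated start in 14 of the 65 members (21.5%) and in 3.01% of the 27025 genes in the whole table. The windows below run from 10 bases before the start to 20 bases into the transcript, with the C and the pyrimidines that follow it in capitals; the first 5 show the longest tracts, *Rpl28*, whose run of 8 bases is as long as those of *Rpl35a*, *Rpl38* and *Rps15a*, is shown because it is named for the genotype on chow, and the last pair belongs to the members that passed the test in a comparison, where no such run lies at the annotated start.
Rpl15, chr14:18270967-18270996, minus strand: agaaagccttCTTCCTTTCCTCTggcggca
Rpl35, chr2:39005112-39005141, minus strand: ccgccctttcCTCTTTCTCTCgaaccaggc
Rps10, chr17:27635225-27635254, minus strand: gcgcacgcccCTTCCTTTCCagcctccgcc
Rps6, chr4:86857348-86857377, minus strand: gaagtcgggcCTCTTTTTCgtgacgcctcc
Rps18, chr17:33955646-33955675, minus strand: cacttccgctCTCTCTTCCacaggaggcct
Rpl28, chr7:4792955-4792984, plus strand: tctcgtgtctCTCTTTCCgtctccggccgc
Rpl12, chr2:32961702-32961731, plus strand: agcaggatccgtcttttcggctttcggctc
Rpl36al, chr12:69184048-69184077, minus strand: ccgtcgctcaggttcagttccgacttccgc

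Other sequence features of the same windows were searched on both strands, and none of the 3 motifs contains another. CCGGAAG, the core bound by ETS factors such as GABPA, was present in 25 of the 65 members (38.5%) against 9.93% of all genes in the table. TATAAA was present in 10.8% of members against 15.7% of all genes, and CACGTG, an E-box, in 9.23% against 8.09%. These matches describe letters in a window and were not tested.

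Total counts were 19191032 to 23888401 per library. The 37 mitochondrially encoded genes were listed at 0 counts in all 11 libraries. TMM factors, which scale each library by the bulk of its genes, were 0.878 to 0.938 in *Xbp1* fl/fl and 1.05 to 1.19 in *Xbp1* LKO libraries, so the genotypes differed in scaling. Levels below are in CPM, counts divided by the TMM-scaled library total and multiplied by 1000000. *Xbp1* itself was at 194, 200 and 221 CPM in fl/fl chow, 95.7 and 128 in LKO chow, 301, 295 and 242 in fl/fl HFS, and 117, 97.3 and 135 in LKO HFS, lower in each LKO library than in any fl/fl library. *Alb*, the albumin gene, took 8.06% to 10.9% of counts in fl/fl chow libraries and 1.67% to 3.72% in LKO chow libraries. Libraries LKO HFS 3 and LKO chow 2 stood above the others of their groups in the genes described here. Medians and the edgeR call of *Rpl12* on chow are therefore also given without them. Values of most single members are not.

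Ribosomal protein genes took only a small part of the counts, which was not read as their share of the mRNA in the cell. In 22 members each read-length stretch of the coding sequence also occurs in another annotated gene, as described below. Among these, *Rps29* had 0 to 6 counts in a library, *Rpl38* 0 to 4 and *Rps6* 4 to 17. How far the counts fall short of the mRNA present was not tested. The 85 members together held 0.358%, 0.308% and 0.343% of the total count in the 3 fl/fl chow libraries, 0.409% and 0.476% in LKO chow, 0.295%, 0.296% and 0.262% in fl/fl HFS, and 0.320%, 0.321% and 0.453% in LKO HFS. The exact binomial 95% interval of each share was at most 0.00308 percentage points to either side, which covers counting error only. Means were 0.337% ± 0.0255 (SD, n = 3), 0.442% ± 0.0473 (n = 2), 0.284% ± 0.0197 (n = 3) and 0.365% ± 0.0766 (n = 3) in the same order. After TMM scaling the summed level of the members was 3704 ± 175 CPM in fl/fl chow, 3877 ± 160 CPM in LKO chow, 3095 ± 182 CPM in fl/fl HFS and 3314 ± 634 CPM in LKO HFS. The fl/fl HFS libraries lay below each fl/fl chow library, and 2 of the 3 LKO HFS libraries did so too.

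**Figure D1:**
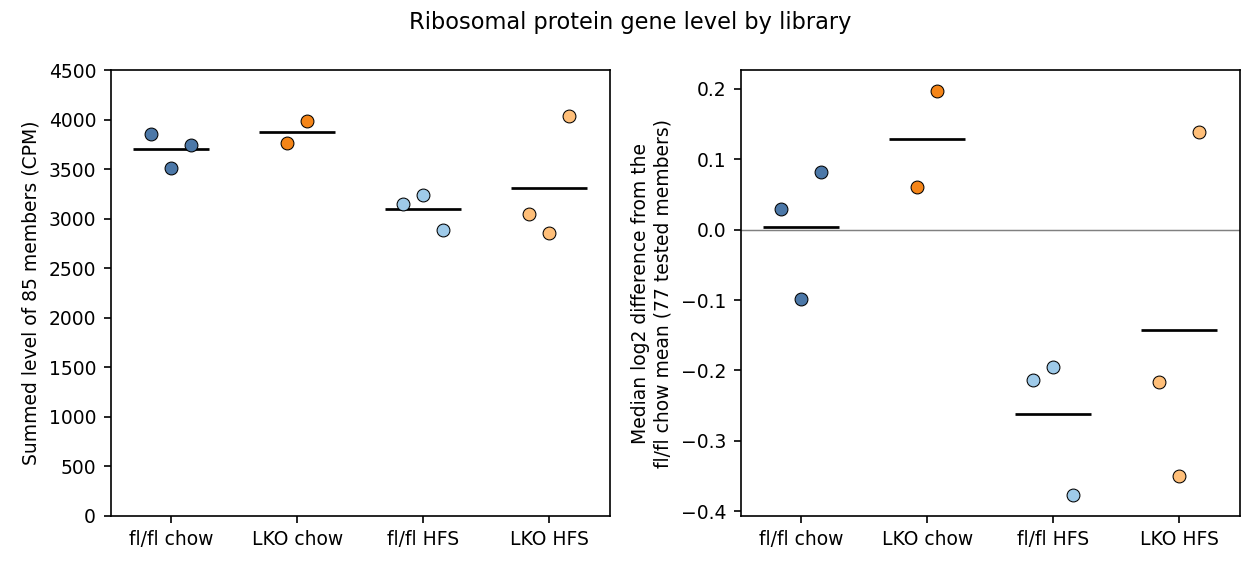
Level of the ribosomal protein genes in each of the 11 libraries (points) with the group mean (horizontal line). These levels rest on counts and were not read as abundance in the cell. The left panel gives the summed level of the 85 members in CPM, from 2853 in LKO HFS 2 to 4037 in LKO HFS 3, and the right panel the median log2 difference of the 77 tested members from their mean in fl/fl chow, which is negative in all 3 fl/fl HFS libraries and in 2 of 3 LKO HFS libraries.

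Levels per length spread over several orders of magnitude. The highest level, the mean CPM over all 11 libraries per kilobase of the gene's median protein-coding transcript, was 343 CPM per kb for *Rplp1*, an acidic stalk protein. *Rpl4* was at 316, *Rpl8* at 297 and *Rps3* at 291 CPM per kb, also among the 5 highest. At the other end of the tested members, *Rps16* was at 0.306, *Rps23* at 0.368, *Rps6* at 0.515, *Rpl19* at 1.04 and *Rpl5* at 1.05 CPM per kb. RPS6, the S6 kinase substrate of the small subunit, and RPL5, which binds 5S ribosomal RNA, are core parts of each ribosome, as RPL8 and RPS3 are.

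The order of the levels ran with how much of each coding sequence is unique. Reads were 50 bases long per the study's methods, so each 50-base stretch of a coding sequence was looked up in all GENCODE M21 transcripts on both strands. The median member had 17.0% of these stretches in no other annotated gene, whereas the median was 100% for the genes of mitochondrial ribosomal proteins, for nuclear subunits of oxidative phosphorylation and for ribosome biogenesis factors. In 22 members not a single stretch was unique, and their median level was 1.19 CPM per kb (range 0.159 to 22.8). In 45 members under 50% but more than none were unique, with a median level of 28.4 CPM per kb, and in 18 members at least 50% were unique, with a median of 79.4 CPM per kb. Over the 85 members Spearman's rho between the unique share and the level was 0.66, and 0.84 over the 82 members left without *Rpl3l*, *Rpl10l* and *Rpl39l*. These points share the same libraries and the correlation is a description. The order of levels is one of counts per length and was not read as an order of abundance in the cell.

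**Figure D2:**
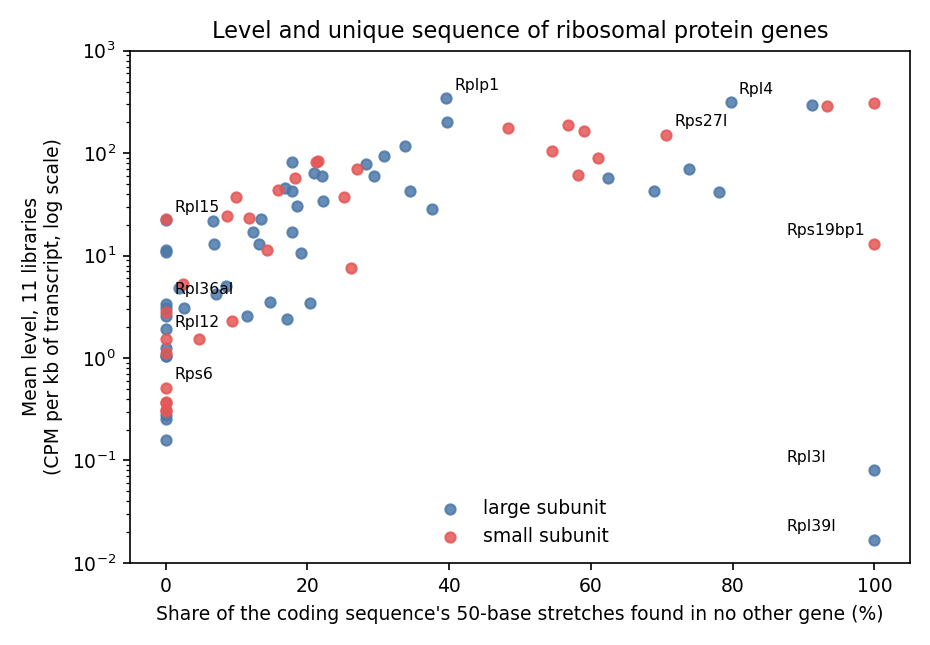
Mean level of each member over the 11 libraries (y axis, CPM per kb of transcript, log scale) against the share of 50-base stretches of its coding sequence that occur in no other annotated gene (x axis, percent), for large subunit (blue) and small subunit (red) names. Members with a share of 0 reach no more than 22.8 CPM per kb, and the paralogs *Rpl3l* and *Rpl39l* lie at the bottom with a share of 100%; *Rpl10l*, at 0 counts, cannot be drawn on the log scale.

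Of the 85 members 77 passed the filter on low counts and were among the 13303 genes tested. The members that were not tested were *Rpl23a*, *Rpl24*, *Rpl38*, *Rps29* and *Rps27rt*, whose coding sequences hold no unique stretch, and the paralogs *Rpl3l*, *Rpl10l* and *Rpl39l*. The tested ones comprised 46 large subunit and 31 small subunit names. In bulk RNA, fewer cells of a type and less RNA per cell cannot be told apart, and this holds for each comparison that follows.

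Deletion of *Xbp1* on chow was accompanied by small positive fold changes in many members, and 1 member passed the test. *Rpl12*, which encodes a protein at the base of the stalk, was at 2.76, 3.06 and 3.68 CPM in the fl/fl chow libraries and at 5.80 and 9.18 CPM in the LKO chow libraries. The groups did not overlap, and the log2 fold change was 1.24 (SE 0.25, adjusted p = 0.018, edgeR quasi-likelihood test with Benjamini-Hochberg adjustment over all genes). *Rpl12* was the only member that rose among 77, and none fell, where 1.73% of all genes tested rose and 3.02% fell. The call was lost without fl/fl chow 1 (adjusted p = 0.0537), without fl/fl chow 2 (0.0636) and without LKO chow 2 (0.253, log2 fold change 0.87), and also with only the chow groups in the fit (0.0795).

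*Rpl12* lies on chromosome 2 at 32961559-32965345, plus strand (GRCm38). None of the 446 50-base stretches of its coding sequence is unique, and 3118 stretches elsewhere in its transcripts, in untranslated or intron-retaining parts, are. Its low count thus refers to those other parts wherever reads had to map to 1 place.

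On chow 4 further members were higher at an unadjusted p under 0.05, and none of them passed after adjustment. With *Rpl12* these made 5 of 77 members higher, and 1 was lower, where 19.3% of all genes tested were under 0.05 in either direction. *Rpl10a*, which encodes the protein of the L1 stalk, was at 5.41, 3.99 and 7.97 CPM in fl/fl chow and at 9.64 and 13.9 CPM in LKO chow (log2 fold change 1.02, SE 0.27, adjusted p = 0.0576, edgeR). It passed with DESeq2 (adjusted p = 0.0127). *Rpl13a*, which also leaves the ribosome as part of an interferon-responsive complex, had a log2 fold change of 0.69 (SE 0.23), *Rpl28* one of 0.74 (SE 0.28) and *Rpl5* one of 0.96 (SE 0.37), with adjusted p of 0.113 to 0.177. These 5 members with the smallest p share low counts, since their means over the libraries lay between 1.51 and 14.1 CPM, and in 4 of the 5 at most 19.1% of the coding stretches were unique. Another gene on the same strand covers 53.3% of the exon bases of *Rpl13a*. Of *Rpl28*, 12.7% of the exon bases are covered by a gene on the other strand, and of *Rpl5* 42.5%. Whether the counting used strand is not stated. In the other direction the smallest p were those of *Rpl36al*, described next, and of *Rpl22*, *Rps27l*, *Rpl7l1* and *Rpl35a*. The log2 fold changes of the latter, -0.20, -0.15, -0.17 and -0.07, did not pass. They were positive by library totals, where the median of all genes was positive too.

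Across the 77 tested members the median log2 fold change on chow was 0.11 (quartiles 0.03 and 0.27), beside 0.00 (quartiles -0.25 and 0.22) over all genes tested. The fold change was positive in 60 of 77 members (77.9%), against 50.3% of all genes. In 19 members each LKO chow library exceeded each fl/fl chow library and in 4 the reverse held, where 15.4% and 15.9% of all genes did so. The median was 0.19 without LKO chow 1, 0.05 without LKO chow 2 and 0.06 without fl/fl chow 2. In that order 63, 47 and 48 of 77 members were positive. By library totals in place of TMM factors, the median of the members was 0.44 and that of all genes 0.33, a difference of 0.11.

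**Figure D3:**
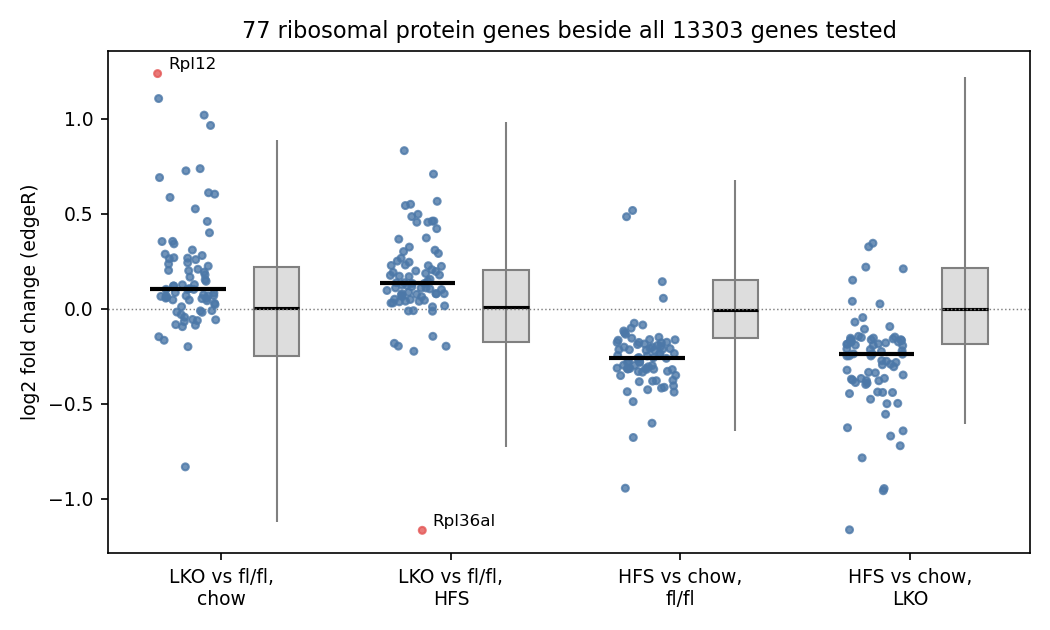
log2 fold changes of the 77 tested ribosomal protein genes (points, the black line is their median, red marks adjusted p under 0.05) in the 4 comparisons, beside all 13303 genes tested (grey box from lower to upper quartile, line at the median, whiskers at the 5th and 95th percentiles). Member medians are 0.11 and 0.13 for the genotype and -0.26 and -0.24 for the diet.

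On the HFS diet 1 member passed the test for the genotype. *Rpl36al*, an autosomal paralog of the X-linked *Rpl36a* whose protein lies near the exit site for transfer RNA, was at 3.10, 3.67 and 3.58 CPM in fl/fl HFS libraries and at 2.04, 1.08 and 1.50 CPM in LKO HFS libraries. It fell, with a log2 fold change of -1.16 (SE 0.27, adjusted p = 0.035, edgeR), and it was the only one of 77 members that passed, where 2.16% of all genes fell and 1.92% rose. On chow it stood at 2.59, 3.12 and 3.63 CPM in fl/fl and at 1.49 and 2.01 CPM in LKO libraries, again with no overlap, and the log2 fold change of -0.83 (SE 0.30) did not pass (adjusted p = 0.153). The difference between the diets in this effect was -0.33 on the log2 scale (adjusted p = 0.926, interaction test in edgeR). The call on HFS was lost without any 1 of the 3 fl/fl HFS libraries (adjusted p = 0.0787, 0.0989 and 0.106), without LKO HFS 2 (0.142) and without LKO HFS 3 (0.107).

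*Rpl36al* lies on chromosome 12 at 69182731-69184083, minus strand, and its coding sequence also holds no unique 50-base stretch. *Mgat2*, which encodes an N-glycan branching enzyme of the Golgi, starts 73 bases away on the other strand and was looked at after the values of *Rpl36al* were seen. It was at 52.4, 44.9 and 52.1 CPM in fl/fl HFS and at 35.4, 23.0 and 31.9 CPM in LKO HFS, and at 45.7, 49.4 and 59.0 CPM in fl/fl chow and 32.0 and 29.1 CPM in LKO chow. Both genes of this divergent pair were thus lower in each LKO library than in any fl/fl library of the same diet, and *Mgat2* fell by 0.73 on the log2 scale on HFS (SE 0.15, adjusted p = 0.0256, edgeR) and by 0.75 on chow (SE 0.18, adjusted p = 0.0352). A readthrough gene, *Gm49383*, covers 24.5% of the exon bases of *Rpl36al* on the same strand and was listed at 0 in each library.

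Over the 77 members the median log2 fold change on HFS was 0.13 (quartiles 0.06 and 0.25), beside 0.01 over all genes, and 68 members (88.3%) were positive against 51.4% of all genes. This direction rested on 1 library. Without LKO HFS 3 the median was -0.03 and 34 of 76 members were positive. In 9 members each LKO HFS library exceeded each fl/fl HFS library and in 2 the reverse held, against 13.6% and 12.5% of all genes. Among the members with the smallest unadjusted p, *Rpl39* had a log2 fold change of 0.49 (SE 0.17), *Rpl15* one of 0.37 (SE 0.15), *Rps7* one of 0.71 (SE 0.31), *Rpl13a* one of 0.46 (SE 0.21) and *Rpl13* one of 0.37 (SE 0.18), with adjusted p of 0.145 to 0.324. *Rpl39* was at 12.3, 13.3 and 9.40 CPM in fl/fl HFS and at 15.3, 14.4 and 19.4 CPM in LKO HFS. Its groups did not overlap on HFS, whereas on chow they did. Of the members with negative values, *Rpl7a* (-0.22), *Rpl7l1* (-0.20), *Rpl22* (-0.20) and *Rps3a1* (-0.18) came after *Rpl36al*, and none of them passed. All 4 were positive by library totals, where the median of all genes was positive too.

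The diet comparison gave the most uniform pattern. In *Xbp1* fl/fl hepatocytes 73 of the 77 tested members (94.8%) were lower on HFS than on chow, against 51.1% of all genes, with a median log2 fold change of -0.26 (quartiles -0.32 and -0.18) beside -0.01 (quartiles -0.15 and 0.15) over all genes, a median of 16.3% less. No single member passed the adjusted threshold in the edgeR test (smallest adjusted p = 0.346), where 0.135% of all genes rose and 0.293% fell. At an unadjusted p under 0.05 there were 14 of 77 members, all lower, where 8.95% of all genes were in either direction. DESeq2 called 0 members. All 3 fl/fl HFS libraries lay below all 3 fl/fl chow libraries in 36 members and above them in 0, where 7.34% and 6.33% of all genes did so.

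Among the 15 tested members in which at least 50% of the coding stretches are unique, all 15 had a negative fold change and 12 had groups that did not overlap. *Rpl4*, a large subunit protein that lines the peptide exit tunnel, was at 526, 482 and 541 CPM in fl/fl chow and at 450, 462 and 405 CPM in fl/fl HFS. *Rpl8*, of the large subunit, was at 312, 307 and 277 CPM on chow and at 240, 259 and 239 CPM on HFS. *Rps3*, which lines the messenger entry channel, was at 316, 286 and 327 CPM on chow and at 260, 254 and 235 CPM on HFS. In each of these genes the lowest chow library exceeded the highest HFS library, and the log2 fold changes were -0.23 (SE 0.14), -0.28 (SE 0.13) and -0.31 (SE 0.14), none past the adjusted threshold (adjusted p = 0.684, 0.59 and 0.537, edgeR). In the 17 tested members with no unique stretch, 13 were negative and 2 had groups that did not overlap.

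The fl/fl members with the smallest p for the diet were *Rpl32*, *Rps7*, *Rps18*, *Rpl6* and *Rpl7a*, each lower on HFS. *Rpl32* was at 52.0, 43.7 and 44.4 CPM on chow and at 35.4, 34.9 and 33.1 CPM on HFS, a log2 fold change of -0.44 (SE 0.14, adjusted p = 0.346, edgeR). Another gene on the same strand covers 14.5% of its exon bases. *Rps18* was at 36.3, 34.7 and 35.1 CPM on chow and at 26.3, 24.8 and 24.5 CPM on HFS (-0.49, SE 0.17). In both genes the lowest chow library exceeded the highest HFS library. *Rps7*, a protein of the small subunit that also binds MDM2, had a log2 fold change of -0.94 (SE 0.31) at a mean of 1.37 CPM, *Rpl6* one of -0.38 (SE 0.13) and *Rpl7a* one of -0.33 (SE 0.12). The 4 members with a positive value included *Rpl5* (0.52, SE 0.35), *Rpl36al* (0.14, SE 0.26) and *Rpl27a* (0.06, SE 0.16), none of which has a unique coding stretch, and *Rpl27a* was negative without fl/fl chow 2 or without fl/fl HFS 2.

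**Figure D4:**
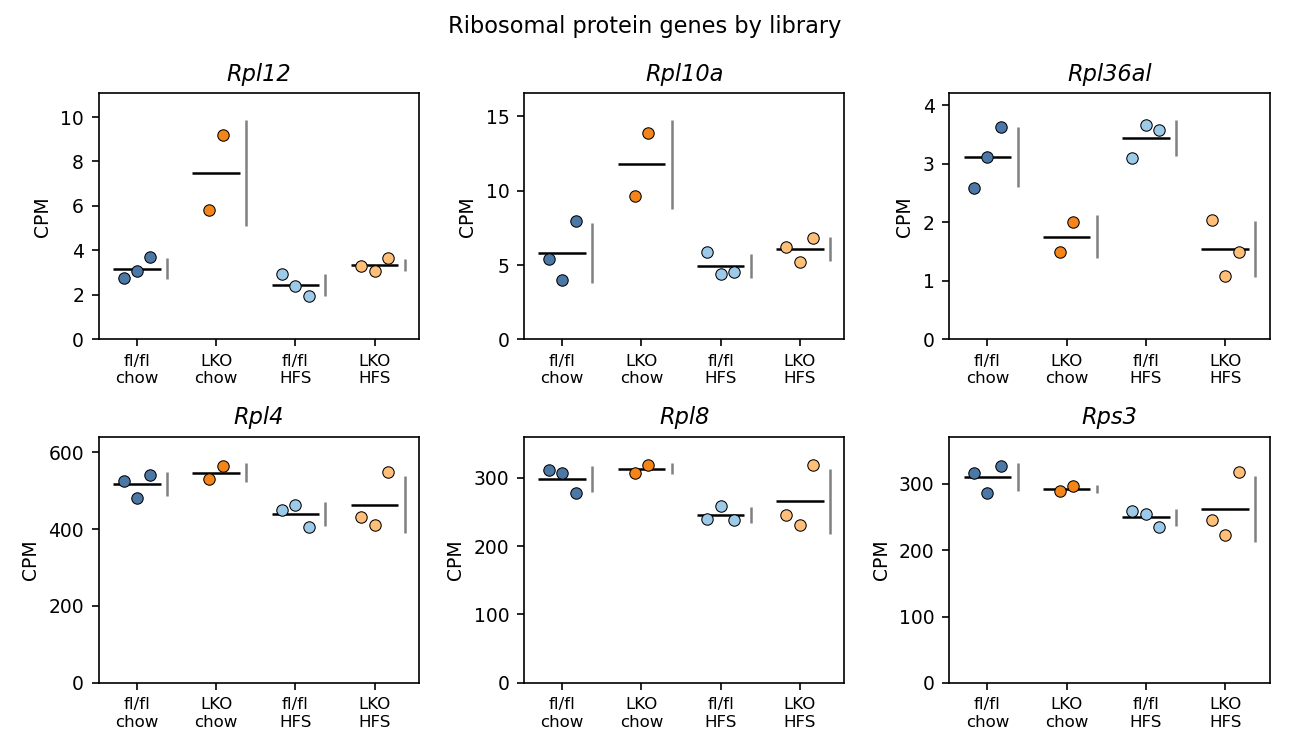
CPM of 6 ribosomal protein genes in the 11 libraries (points), with the group mean (black line) and its SD (grey bar beside the points, n = 3, 2, 3 and 3). The upper row shows *Rpl12*, *Rpl10a* and *Rpl36al*, at up to 13.9 CPM, and the lower row *Rpl4*, *Rpl8* and *Rps3*, in which all fl/fl HFS libraries lie below all fl/fl chow libraries and LKO HFS 3 lies above the other 2 LKO HFS libraries.

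In *Xbp1* LKO hepatocytes the same comparison gave a median of -0.24 (quartiles -0.38 and -0.16), beside 0.00 over all genes, and 70 of 77 members (90.9%) were lower on HFS, against 50.5% of all genes. No member passed in the edgeR test (smallest adjusted p = 0.152), where 0.0451% of all genes rose and 0.015% fell. At an unadjusted p under 0.05 there were again 14 of 77 members, all lower, where 12.7% of all genes were in either direction. DESeq2 called 1 member, *Rpl12*, and the share of all genes it called is not given here. In 20 members each LKO HFS library lay below each LKO chow library and in 2 the reverse held, against 14.4% and 16.7% of all genes. Library LKO HFS 3 counted strongly here. Without it the median was -0.42, 73 of 76 members were negative, and 61 of the 77 members had all remaining HFS libraries below both chow libraries, against 23.1% of all genes.

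The LKO members with the smallest p for the diet included those that were highest on LKO chow. *Rpl12* was at 5.80 and 9.18 CPM in LKO chow and at 3.30, 3.09 and 3.64 CPM in LKO HFS, with a log2 fold change of -1.16 (SE 0.25, adjusted p = 0.152, edgeR, and 0.00733 with DESeq2). *Rpl10a* had one of -0.96 (SE 0.27), *Rpl28* one of -0.95 (SE 0.28), *Rpl7a* one of -0.50 (SE 0.13) and *Rpl29* one of -0.44 (SE 0.14), with adjusted p of 0.192 to 0.262. The genotype comparison on chow and this one share the LKO chow libraries. *Rpl7a* was at 22.1 and 22.5 CPM in LKO chow and at 15.2, 14.1 and 18.0 CPM in LKO HFS, so its groups did not overlap even with LKO HFS 3. Of the positive values, *Rpl39* was at 0.33 (SE 0.19), *Rpl15* at 0.22 (SE 0.16), *Rps27l* at 0.15 (SE 0.11) and *Rpl27a* at 0.04 (SE 0.17), none past the threshold, and *Rpl27a* was negative by library totals and without LKO HFS 3.

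Of the genes with mostly unique coding sequences, *Rpl4* was at 530 and 564 CPM in LKO chow and at 432, 410 and 550 CPM in LKO HFS. *Rpl8* was at 308 and 319 CPM and at 246, 231 and 319 CPM, and *Rps3* at 289 and 297 CPM and at 246, 223 and 318 CPM. In all 3 genes LKO HFS 1 and 2 lay below both LKO chow libraries, and LKO HFS 3 lay between them for *Rpl4* and above both for *Rpl8* and *Rps3*. Log2 fold changes were -0.24 (SE 0.15), -0.24 (SE 0.15) and -0.16 (SE 0.15). Over the 15 tested members of this class the median was -0.19, with 14 negative and 1 whose groups did not overlap downwards.

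The difference between the genotype effects on the 2 diets was tested as an interaction. No member passed in the edgeR test (smallest adjusted p = 0.793), nor did any of the 13303 genes (0%), and DESeq2 called 0 members. At an unadjusted p under 0.05 there were 3 of 77 members, where 6.13% of all genes were in either direction. *Rps27l*, a p53-responsive paralog of *Rps27*, had a log2 interaction of 0.34 (SE 0.15), *Rpl39*, a short protein at the peptide exit tunnel, one of 0.57 (SE 0.25), and *Rpl12* one of -0.78 (SE 0.35). The median over the members was 0.01, beside 0.01 over all genes, and it was -0.14 without LKO HFS 3.

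Paralogs were considered with their partners. Of these, 3 are known for expression outside the liver, *Rpl3l* in muscle and *Rpl10l* and *Rpl39l* in the germline, and here *Rpl10l* had 0 counts in all 11 libraries, which allows up to 3 counts or 0.112 to 0.173 CPM in a library. *Rpl39l* had at most 1 count and *Rpl3l* at most 5 counts in a library, although their coding sequences are 100% unique. *Rps27rt*, a near copy of *Rps27*, had 0 to 6 counts. *Rpl22l1*, whose RNA is bound and repressed by its partner RPL22 in other cells, was at 8.33, 6.82 and 9.26 CPM in fl/fl chow, 11.1 and 11.3 CPM in LKO chow, 9.43, 7.08 and 6.02 CPM in fl/fl HFS, and 9.21, 7.96 and 13.0 CPM in LKO HFS. A gene on the other strand covers 28.3% of its exon bases. Its level per length relative to *Rpl22* was 0.273 to 0.397 in the 6 fl/fl libraries and 0.457 to 0.555 in the 5 LKO libraries, without overlap. The change of *Rpl22l1* itself did not pass on either diet (log2 fold change 0.46, SE 0.24, adjusted p = 0.324 on chow and 0.42, SE 0.21, adjusted p = 0.352 on HFS, edgeR), nor did that of *Rpl22* (-0.20 on both, adjusted p = 0.467 and 0.459). *Rpl7l1* stood at 0.382 to 0.567 of the level per length of *Rpl7* with overlapping groups. *Rps4l*, annotated as a transcribed pseudogene and no member, stood at 0.239 to 0.536 of *Rps4x*. The ratio of *Rps27l* to *Rps27* was 34.0 to 131, with overlap between the genotypes. That of *Rpl36al* to *Rpl36a* was 1.11 to 2.45 in the 6 fl/fl libraries and 0.732 to 0.911 in the 5 LKO libraries. Its genotypes did not overlap, as for *Rpl22l1*. In both pairs 1 or both partners have few or no unique stretches, so the ratios carry the limit on levels stated above. Of the coding stretches of *Rpl22l1*, 17.8% are unique.

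Genes of this kind that the symbol pattern misses gave a similar direction for the diet. *Rpsa*, *Fau* and *Rack1* had a median log2 fold change of -0.29 in fl/fl and -0.24 in LKO hepatocytes on HFS, all 3 negative in both, and 0 of 3 passed. *Rack1*, which encodes a scaffold protein on the head of the small subunit, was at 381, 342 and 371 CPM in fl/fl chow and at 297, 322 and 274 CPM in fl/fl HFS, and at 337 and 362 CPM in LKO chow and 269, 245 and 372 CPM in LKO HFS. *Fau*, a ubiquitin-like fusion with RPS30, had log2 fold changes for the diet of -0.49 (SE 0.41) in fl/fl and -1.01 (SE 0.45) in LKO. *Rpsa*, which encodes a small subunit protein also known as a laminin receptor, was at -0.13 (SE 0.24) and -0.12 (SE 0.26). For the genotype their medians were 0.13 on chow and -0.01 on HFS.

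Other genes of translation were compared by lists that were chosen with earlier results known, and counts are read against the percentages of all genes given above. Of 22 other genes of the TOP type, such as elongation factors, 19 were negative for the diet in each genotype, with medians of -0.11 in fl/fl and -0.13 in LKO, and 0 passed. In that list *Eef1b2*, a guanine nucleotide exchange factor of elongation, had a log2 fold change of -0.33 (SE 0.12, adjusted p = 0.442) in fl/fl, and *Tpt1* one of -0.69 (SE 0.23, adjusted p = 0.268) in LKO hepatocytes. Initiation factors (30 tested) had diet medians of -0.04 and -0.12, with *Eif1*, which scans for the start codon, at -0.40 (SE 0.13) in fl/fl and -0.36 (SE 0.15) in LKO. Mitochondrial ribosomal proteins (77 tested), encoded by other genes and working in another compartment, had medians of -0.07 and -0.11, and nuclear subunits of oxidative phosphorylation (89 tested) medians of -0.09 and -0.04. Negative values were also the majority in these lists. In fl/fl and LKO they numbered 19 and 21 initiation factors, 57 and 56 mitochondrial ribosomal proteins, and 73 and 56 oxidative phosphorylation subunits. All 2117 tested protein-coding genes with a transcript under 1000 bases, the length class of most members, had medians of -0.03 in fl/fl and -0.05 in LKO hepatocytes.

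Ribosome biogenesis factors moved most with the genotype on chow. Of 67 such genes 6 rose in LKO chow hepatocytes and 0 fell, 57 were positive, and the median log2 fold change was 0.29. *Nolc1*, a nucleolar phosphoprotein that binds box H/ACA particles, rose by 0.73 (SE 0.12, adjusted p = 0.00773, edgeR) and *Rrs1*, which helps to load 5S ribosomal RNA, by 0.67 (SE 0.11, adjusted p = 0.00867). On HFS the median was 0.12 and 0 of 67 passed, with *Rrs1* at 0.33 (SE 0.10, adjusted p = 0.104). The diet effect in this list had a median of -0.03 in fl/fl and -0.24 in LKO hepatocytes, and 0 passed in either. Of the 67 genes 42 were negative in fl/fl and 59 in LKO, where the median of the ribosomal protein genes was also -0.24.

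Among 30 tested regulators of ribosomal protein synthesis and of translation, 4 rose and 1 fell in LKO hepatocytes on chow, and 1 rose and 1 fell on HFS. *Ddit3*, which encodes the stress factor CHOP, rose by 3.77 (SE 0.66, adjusted p = 0.00978) on chow and by 2.50 (SE 0.62, adjusted p = 0.0481) on HFS. *Ppp1r15b*, the constitutive regulatory subunit of the eIF2α phosphatase, had log2 fold changes of -0.83 (SE 0.14, adjusted p = 0.00742) and -0.78 (SE 0.12, adjusted p = 0.00537). For the diet 0 of the 30 passed in either genotype, and *Atf4* was at -0.34 (SE 0.10, adjusted p = 0.3) in fl/fl. The 292 annotated pseudogenes of ribosomal proteins together had 563 to 993 counts in a library, and 13 of them were tested, with medians of 0.13, 0.05, -0.15 and -0.17 in the 4 comparisons and 0 past the threshold.

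**Figure D5:**
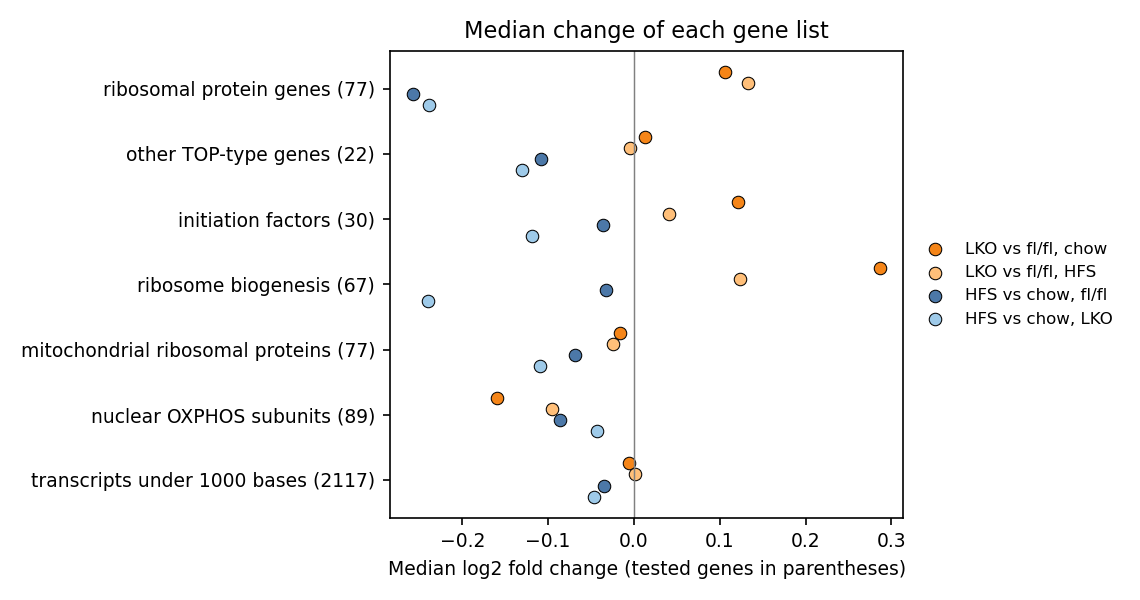
Median log2 fold change (x axis) of the tested genes of 7 lists (rows, number tested in parentheses) in the 4 comparisons (colours). The ribosomal protein genes have the lowest diet median in fl/fl of the lists drawn (-0.26), and ribosome biogenesis factors have the highest genotype median on chow (0.29). In LKO the diet medians of these lists are both -0.24.

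Markers of other liver cells were measured in the same libraries. The summed level of 14 endothelial markers was 64.6 to 161 CPM in fl/fl chow and 124 to 212 CPM in fl/fl HFS, and 39.4 to 50.8 CPM in LKO chow and 103 to 176 CPM in LKO HFS. Stellate cell markers (13 genes) summed to 19.5 to 65.8 CPM in fl/fl chow, 34.5 to 61.8 CPM in fl/fl HFS, 14.2 to 17.0 CPM in LKO chow and 39.5 to 81.4 CPM in LKO HFS. Macrophage markers (14 genes) summed to 23.6 to 101 CPM, 44.5 to 63.2 CPM, 27.0 to 40.0 CPM and 63.4 to 113 CPM in the same order, and no gene of these 3 lists was at 0 in all libraries. The ranges of the diets overlapped in fl/fl for all 3 lists and were apart in LKO hepatocytes for all 3. For the diet in fl/fl, all 14 endothelial markers had a positive log2 fold change (median 0.77), as had all 11 tested stellate markers (median 0.45), while 7 of 14 macrophage markers did (median -0.01). In LKO hepatocytes all tested genes of the 3 lists were positive, with medians of 1.55, 2.26 and 1.31. For the genotype on chow all of them were negative, with medians of -1.29, -1.20 and -0.51, and on HFS the medians were -0.38, 0.37 and 0.63. In none of these 4 comparisons did a gene of the 3 lists pass the test. The 25 hepatocyte markers summed to 210093 to 228860 CPM in fl/fl chow, 179577 to 192185 CPM in fl/fl HFS, 85306 to 123444 CPM in LKO chow and 100134 to 136219 CPM in LKO HFS. Over all groups cholangiocyte markers summed to 18.5 to 37.0 CPM, lymphocyte markers to 2.08 to 8.51 CPM and red blood cell and neutrophil markers to 118 to 182 CPM. In that order 3 of 9, 3 of 12 and 3 of 9 genes passed the filter on low counts. These sums were thus not read as levels of the cell types. The part of these differences in the levels of ribosomal protein genes was not tested.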

How the data were processed

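The deposited tables hold whole-number counts per Ensembl gene for 11 hepatocyte libraries, not normalized by the authors. Whether counts of some genes were removed is not stated, and the 37 mitochondrially encoded genes are at 0 throughout. The submitters' processing notes name cutadapt 1.13, STAR, HTSeq 0.6.1p1 and mm10, while the paper names kallisto and tximport, so the counting tool is not settled. A rule that drops reads with several possible origins would lower the counts of genes with many near copies. Identifiers (54165 of 54232) were named from GENCODE M21 (GRCm38). edgeR 4.0.16 in R 4.3.3 computed TMM-scaled CPM, left out low genes (filterByExpr with a minimum count of 10, 13303 genes kept) and tested contrasts of the 4 groups by quasi-likelihood in 1 fit of the 11 libraries. Adjusted p (Benjamini-Hochberg over the tested genes) passed under 0.05. With the chow-fed LKO group at 2 libraries, the spread is shared over groups. The members and lists were chosen with earlier results of these data known.

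The genes named are, in each of the 4 comparisons, the 5 higher and 5 lower members with the smallest unadjusted p at a mean of at least 1 CPM, the 3 with the smallest p in the interaction, the 5 highest and 5 lowest levels per length among tested members, paralogs with their partners, *Rpsa*, *Fau*, *Rack1*, *Xbp1* and *Alb*, and genes among the 2 with the smallest p of a list. Members of which counts per library are shown as examples (*Rpl4*, *Rpl8*, *Rps3*) come from the highest levels, while *Mgat2*, *Gm49383* and *Rps19bp1* were named after their values were seen. Some genes that this rule names are not reported here. Levels used the median length of a gene's protein-coding transcripts. Chi-square per degree of freedom between replicates of a group was 25.4 to 91.5, so none was a library deposited again; p-values measure the spread between these libraries. Alternatives were DESeq2 1.42.0, RLE size factors, library totals, TMM factors without the members, no filter or a minimum count of 50, fits of the compared groups alone, replicate blocks and each library left out. The code was tested on simulated counts for the genotype effect on HFS, where edgeR recovered 128 of 200 genes changed by 2-fold with 8 false calls among 12917 genes.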

Additional observations from a re-analysis of the deposited data

How the results depend on the processing

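Low counts limit members without unique sequence, and 2 to 3 libraries a group limit each call. Settings not named below moved no count of called members by over 1.5 times and no median by more than 1 SD between libraries. Of the values of named members under an alternative, 751 kept their direction and side of the threshold, 12 lost the call (*Rpl12* on chow or *Rpl36al* on HFS), 16 gained one and 14 reversed. Genotype on chow: higher calls were 2 with DESeq2 (3.17% of all genes were called higher) and 3 of 84 members with no filter (2.60%). By library totals they were 15 (median 0.44, 20.2% of all genes called higher). They were 0 with only the groups compared and 0 with a replicate block. With 1 library of a group other than LKO chow left out they ranged from 0 to 2, and lower calls stayed at 0. With any 1 library left out the median ranged from 0.05 to 0.19. Genotype on HFS: library totals gave 3 higher calls and a median of 0.39 (all genes 0.27, of which 9.68% were called higher), and lower calls were 0 with either replicate block; with 1 library left out lower calls ranged from 0 to 1, higher calls were 0 and the median ranged from -0.03 (without LKO HFS 3) to 0.23. Diet in fl/fl: 1 lower call with no filter, and leaving out 1 library gave 0 calls and medians from -0.30 to -0.21. Diet in LKO: lower calls were 1 with DESeq2 and 3 with no filter. For both diet comparisons the share of all genes called with DESeq2 or no filter is not given here. Leaving out 1 library of a group other than LKO chow gave 0 calls in LKO. With any 1 library left out the medians ranged from -0.42 (without LKO HFS 3) to -0.15. The interaction gave 0 calls under each alternative; it was not run with only the groups compared, which is the same fit.

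Replicate numbers did not pair libraries: deviations of same-numbered libraries from their group means had correlations from -0.20 to 0.23 (mean -0.01). The replicate block, by the numbers of the titles, gave medians of 0.17, 0.12, -0.25 and -0.29 in the 4 comparisons and 0 calls, and with the other number that 1 LKO chow library carries elsewhere, 1 higher call on chow.

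Members whose groups do not overlap (added after seeing the data) numbered 63 higher and 1 lower for the genotype on chow by library totals (46.1% and 5.83% of all genes), 46 and 1 on HFS (39.6% and 4.17%), and 25 lower for the diet in fl/fl (6.16%), and 1 was higher for the diet in LKO (13.1%); without LKO HFS 3 there were 9 higher and 6 lower for the genotype on HFS (18.7% and 18.2%), and 2 higher and 61 lower for the diet in LKO (23.6% and 23.1%). Single members reversed by library totals on chow (*Rpl22* 0.13, *Rps27l* 0.18, *Rpl7l1* 0.16, *Rpl35a* 0.26) and on HFS (*Rpl7a* 0.038, *Rpl7l1* 0.063, *Rpl22* 0.063, *Rps3a1* 0.074). By library totals the median of all genes was 0.33 on chow and was also positive on HFS, as given above. Each of these members stayed below that median. *Rpl27a* reversed for the diet in fl/fl without chow 2 (-0.017) or HFS 2 (-0.050), and in LKO by library totals (-0.017), with the block (-0.018) and without chow 1 (-0.046) or HFS 3 (-0.066). The median share of counts moved to 0.385% in fl/fl chow and 0.315% in fl/fl HFS without *Alb* and mitochondrial genes in the total, and to 0.378% and 0.323% with *Rpsa*, *Fau* and *Rack1* added. The causes were not tested.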
